A study of Mus musculus with 4 samples.

Results

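The cytosolic ribosomal protein genes were taken from a ribosome profiling (Ribo-seq) table of primary mouse myoblasts as the protein-coding genes named Rpl or Rps followed by a number, Rplp0 to Rplp2 and Rpsa, with the Rps6 kinases left out. The rule gave 92 of the 55573 genes in the table, which held 21900 protein-coding genes. Of the 92, 46 encode core proteins of the large ribosomal subunit and 31 encode core proteins of the small subunit. The other 15 are paralogs, copies annotated as protein-coding, and Rps19bp1, which encodes a protein that binds RPS19 and is not itself a ribosomal protein.

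Ribo-seq reads are fragments of mRNA that ribosomes shielded from RNase I. The 4 libraries came from myoblasts of the hind limbs of 3-week-old mice, grown with FGF and collected at Day 2. The cells were treated with cycloheximide before collection, for a time that the sources give differently. There were 2 WT libraries and 2 libraries with the eIF5A knockout label (KO). In the KO animals, described by the study as Pax7 CreERT2/+ with eIF5A f/f, Cre is driven from the Pax7 locus of satellite cells and acts after tamoxifen. The study describes its WT controls in more than one way, with Cre and no floxed allele or with the floxed allele and no Cre, and which applies to these libraries is not given in the sources used here. Any cultured cell that never expressed Pax7 keeps eIF5A in this model. The labels do not say whether the replicates came from separate animals, so p-values measure only the spread between these libraries.

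Each ribosome carries one copy of most of these proteins, so their genes are expressed at high and similar levels, and the stalk proteins RPLP1 and RPLP2 are exceptions that occur as pairs of dimers. The mRNAs begin with a C followed by a run of pyrimidines, the terminal oligopyrimidine (TOP) tract, through which the kinase mTORC1 and the RNA-binding protein LARP1 control their translation. eIF5A is a translation factor that helps the ribosome to elongate and to terminate, above all at runs of prolines.

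Some facts of the libraries touch every value below. Reads assigned to genes numbered 642429 to 704006 per library, and the median core gene had 205 reads over the 4 libraries together. Protein-coding genes took 41.5% and 33.9% of reads in the WT libraries, compared with 65.4% and 59.2% in the KO-labelled libraries. Eif5a, the targeted gene, had 50 and 73 reads in WT against 130 and 114 in the KO-labelled libraries, a log2 difference of 0.32 ± 0.48 (SE; adjusted p = 0.839, limma), so the groups are named here by their labels only. Its reads are counted over the whole gene and do not show whether the floxed part was lost. Of 8 myoblast markers, 7 had a lower mean log2 level in the KO-labelled libraries, 3 of them at an unadjusted p under 0.05 (4.46% of all genes tested were) and none at an adjusted p. Myf5 had no read in KO-labelled replicate 2, and the other 7 had reads in every library. Their summed level was 194 to 245 RPKM (reads per kilobase of the gene, scaled by library) in WT and 119 to 130 RPKM in the KO-labelled libraries. The sum over 8 fibroblast markers, none at 0, was 268 to 462 RPKM in WT and 358 to 825 RPKM in the KO-labelled libraries. Summed endothelial markers (5 genes, none at 0) were 99.8 to 106 and 112 to 139 RPKM, and of 6 immune markers Itgam and Cd3e were at 0, with sums of 28.1 to 38.5 and 23.9 to 24.6 RPKM. The part of this shift in the values below was not tested. In bulk samples fewer cells of a type and fewer footprints per cell cannot be told apart.

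All 77 core genes had at least 1 read, and 76 of them had reads in every library. The exception was Rpl24, with no read in KO-labelled replicate 1. Levels of at most 3 reads were treated as not distinct from 0, and 5 core genes had such a level in at least 1 library. Of these, Rpl24 and Rpl35 had it in all 4, so neither was detected above that floor. The filter of a mean of at least 1 RPKM left 82 of the 92 genes, namely the 77 core genes and Rps27l, Rps19bp1, Rpl7l1, Rpl22l1 and Rpl36al. The median core gene stood at 37.5, 40.1, 34.1 and 44.1 RPKM in WT replicates 1 and 2 and KO-labelled replicates 1 and 2, above 93.0% to 95.7% of the protein-coding genes tested.

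Footprints lie on coding sequence, and the gene length behind RPKM counts every exon of every isoform, so levels of different genes were compared per kilobase of coding sequence on the library scale of RPKM. On that scale the quartiles of the core genes, by mean over the libraries, were 108 and 268 around a median of 154. The medians of the 46 large and 31 small subunit genes were 150 and 160. The ranges of the large and small subunit genes overlapped in each library, with medians of 162 and 187 in WT replicate 1, 143 and 213 in WT replicate 2, 123 and 137 in KO-labelled replicate 1 and 157 and 150 in KO-labelled replicate 2.

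**Figure D1:**
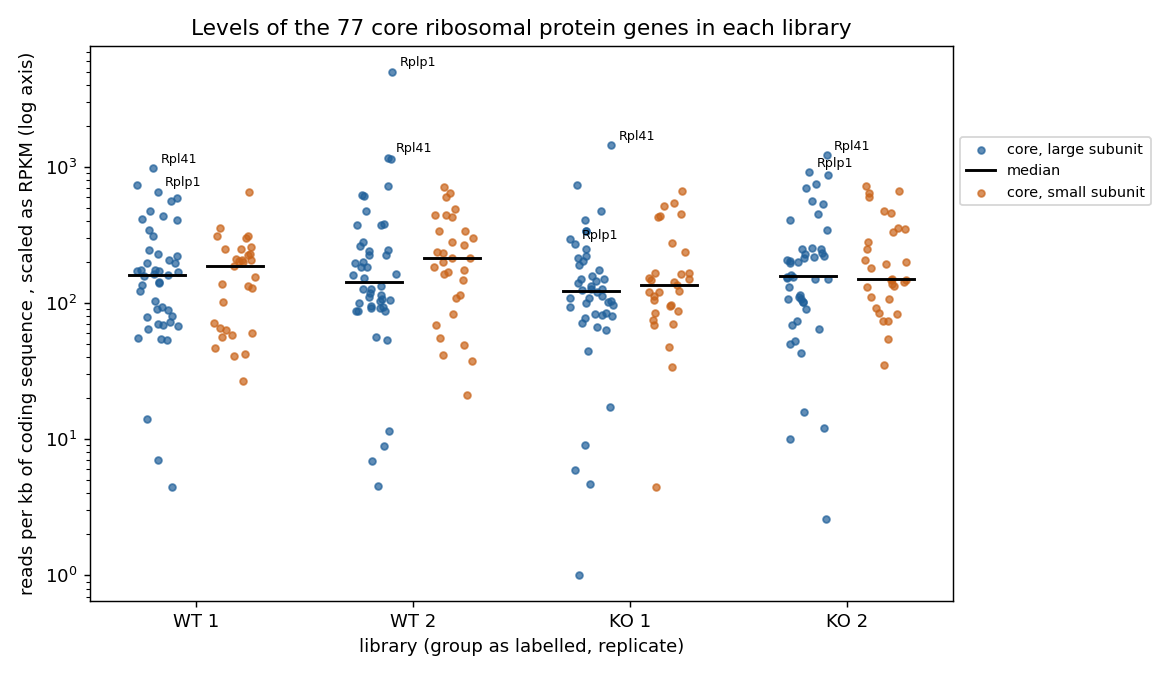
Reads per kilobase of coding sequence, scaled as RPKM (log axis), of each core ribosomal protein gene, one point per gene, in the 4 libraries; black lines are medians over the genes of a subunit, and the gene without a read in KO 1 (Rpl24) is drawn at 1. Rplp1 in WT 2 stands alone at 5014, while Rpl41 is between 978 and 1442 in all 4 libraries.

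The gene at the top of that order by mean was Rplp1 (ENSMUSG00000007892, chromosome 9, 61913284 to 61914542, minus strand, GRCm38), which encodes an acidic protein of the P-stalk, the arm of the large subunit that recruits the GTPases of translation. Rplp1 had 137 and 815 reads in WT against 85 and 255 reads in the KO-labelled libraries. Per coding length its level was 659 and 5014 in WT and 272 and 915 in the KO-labelled libraries. WT replicate 2 was thus 7.61 times its own replicate in RPKM, 5.48 times KO-labelled replicate 2 and 18.5 times KO-labelled replicate 1. Rpl41, which encodes the smallest ribosomal protein, was second and steadier at 978, 1170, 1442 and 1222 per coding length in the same order of libraries, above Rplp1 in every library but WT replicate 2. Rpl38, a large subunit gene known for its part in Hox mRNA translation, followed at 413, 1146, 740 and 878. Rpl8, which encodes a protein near the peptidyl transferase center, was at 407, 724, 476 and 701, and the ranges of Rpl38 and Rpl8 overlapped each other. Rps3, Rps29, Rps21 and Rplp2, named here for their place in this order, were among the next with means of 543, 527, 517 and 511, differences far smaller than the spread of any of them between libraries.

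The gene with the fewest footprints among the core genes was Rpl24, which encodes a protein of the bridge between the subunits. Rpl24 had 2 and 2 reads in WT against 0 and 1 in the KO-labelled libraries. Rpl35, an exit tunnel protein gene, had 1, 2, 2 and 3 reads. Rpl23a, whose product binds the signal recognition particle at the tunnel exit, had 4, 1, 2 and 6 reads, and Rpl13a, best known outside the ribosome for silencing inflammatory mRNAs, had 20, 2, 5 and 6; these 2 genes lie outside the rule for named genes and were chosen after their values were seen. Rps10, a small subunit gene mutated in Diamond-Blackfan anemia, had 8, 5, 2 and 14 reads. The proteins of these genes are present once in each ribosome, as are those of genes with many times their reads.

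Ribosomal protein genes have many processed copies in the genome, and how the reads that match several places were counted is not given in the sources used here. The 28-base words of each coding sequence were therefore looked up in the transcripts of genes elsewhere in the genome. In 57 of 77 core genes at least 90% of the words occurred in another gene, and the median level of those 57 was 141 per coding length, with a range of 4.64 to 1203. The 20 genes below 90% had a median of 271, with a range of 20.6 to 1715, and the 4 genes below 50% had a median of 534, with a range of 413 to 577. Across the 77 core genes the share of repeated words and the level had a Spearman correlation of -0.33, given as a description since the genes share libraries. Of the low genes named above, Rpl24 and Rpl23a had all their words elsewhere and Rpl13a had 70.9%. Reads assigned to 299 table rows named as ribosomal protein pseudogenes summed to 52 over the 4 libraries, 0.232% of the 22429 reads on the 92 genes. Low levels within this family are therefore uncertain, while a comparison of 1 gene between libraries keeps the same words on each side.

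Of the paralogs, Rps27l had the highest level, a mean of 160 per coding length. Rps27l, a p53-responsive paralog of Rps27, had 13 and 24 reads in WT against 49 and 30 in the KO-labelled libraries, beside 24, 5, 11 and 19 reads for Rps27. Their coding sequences share 0 of 228 words, so no word of that length confuses Rps27 with Rps27l. Other genes hold 100% of the words of Rps27 and 63.6% of those of Rps27l, so the level of each remains uncertain. Rpl7l1, a nucleolar relative of Rpl7, had 19, 18, 35 and 66 reads, beside 86, 62, 83 and 129 for Rpl7. Rpl36al had 2, 1, 3 and 0 reads, beside 38, 23, 24 and 13 for Rpl36a. Rpl39l, whose human counterpart is known from testis and some tumors, had 1 read in all, in KO-labelled replicate 2, beside 29, 45, 58 and 57 for Rpl39. Rps19bp1 had 24.5 and 27.4 RPKM in WT and 15.3 and 17.1 RPKM in the KO-labelled libraries, groups that did not overlap, on 14 to 16 reads per library (log2 difference -0.65, adjusted p = 0.697, limma).

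The other 9 genes had no read in any library. They were Rpl3l, the paralog of Rpl3 restricted to striated muscle fibers, Rpl10l, the testis paralog of Rpl10, and the copies Rps27rt, Rpl10-ps3, Rps12-ps3, Rpl36a-ps1, Rpl36-ps4, Rpl9-ps1 and Rpl9-ps6. A count of 0 allows up to 3 reads in a library, which for a gene of 1 kb is 4.98 and 6.37 RPKM in WT and 3.31 and 3.71 RPKM in the KO-labelled libraries. Intervals and floors cover counting error only. Rps27rt, Rpl10-ps3 and Rps12-ps3 share 100% of the words of Rps27, Rpl10 and Rps12, so their zeros say nothing of whether they were translated. Rps12 had 14 and 7 reads in WT against 27 and 24 in the KO-labelled libraries, and Rpl9, which shares 94.9% of its words with Rpl9-ps6, had 47, 50, 74 and 100. Rpl3 itself, with 50, 32, 112 and 89 reads, and Rpl3l share no word.

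No ribosomal protein gene passed the test between the groups. In limma on log2(RPKM + 1), 0 of 82 genes had an adjusted p under 0.05, against 0.106% of all 11363 genes tested, and the smallest adjusted p among the 82 was 0.660. Voom on the reads recovered from the table also called 0 of the 82, against 0.695% of all genes tested. At an unadjusted p under 0.05 stood 2 of the 82 genes, beside 7.32% of all genes tested. These 2 were lower in the KO-labelled libraries (4.46% of all genes tested were) and 0 were higher (2.86% of all genes tested), and 1 of the 2, Rpl24, was under the floor of 3 reads in every library. The groups did not overlap in 31 of the 82 genes, against 40.4% of all genes tested. Both KO-labelled libraries lay above both WT libraries in 11 of the 82 genes, where the share over all genes was 20.1%. Both lay below in 20 of the 82, where the share over all genes was 20.3%. This direction turned with the scaling. Scaled to all gene-assigned reads, 42 of the 82 lay above, where the share over all genes was 41.4%, and 3 lay below, where it was 7.87%. On that scale 11 of the 82 stood at an unadjusted p under 0.05, each higher in the KO-labelled libraries, beside 14.8% of all genes tested. The median log2 difference of the 82 genes was -0.04, between quartiles of -0.49 and 0.27, beside 0.00 for all genes and 0.05 for protein-coding genes tested. The median standard error of a ribosomal protein gene was 0.48, so that a change by a factor of 2 in a typical member equals about 2 standard errors. The adjusted test called 12 of the 11363 genes, so the lack of a call does not show the lack of such a change.

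The median of the 82 genes depended on the libraries. Without KO-labelled replicate 1 it was 0.17, and without WT replicate 1 it was -0.26. Scaling to all gene-assigned reads moved the median of all genes by 0.47 and that of the 82 genes to 0.52, which left their distance to the protein-coding median at -0.01. Coding GC content moved with the difference, with a Spearman correlation of -0.33 over the 77 core genes and -0.36 over 9869 protein-coding genes. With the trend on GC and coding length removed the median was -0.23 for the 82 genes and -0.01 for protein-coding genes.

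**Figure D2:**
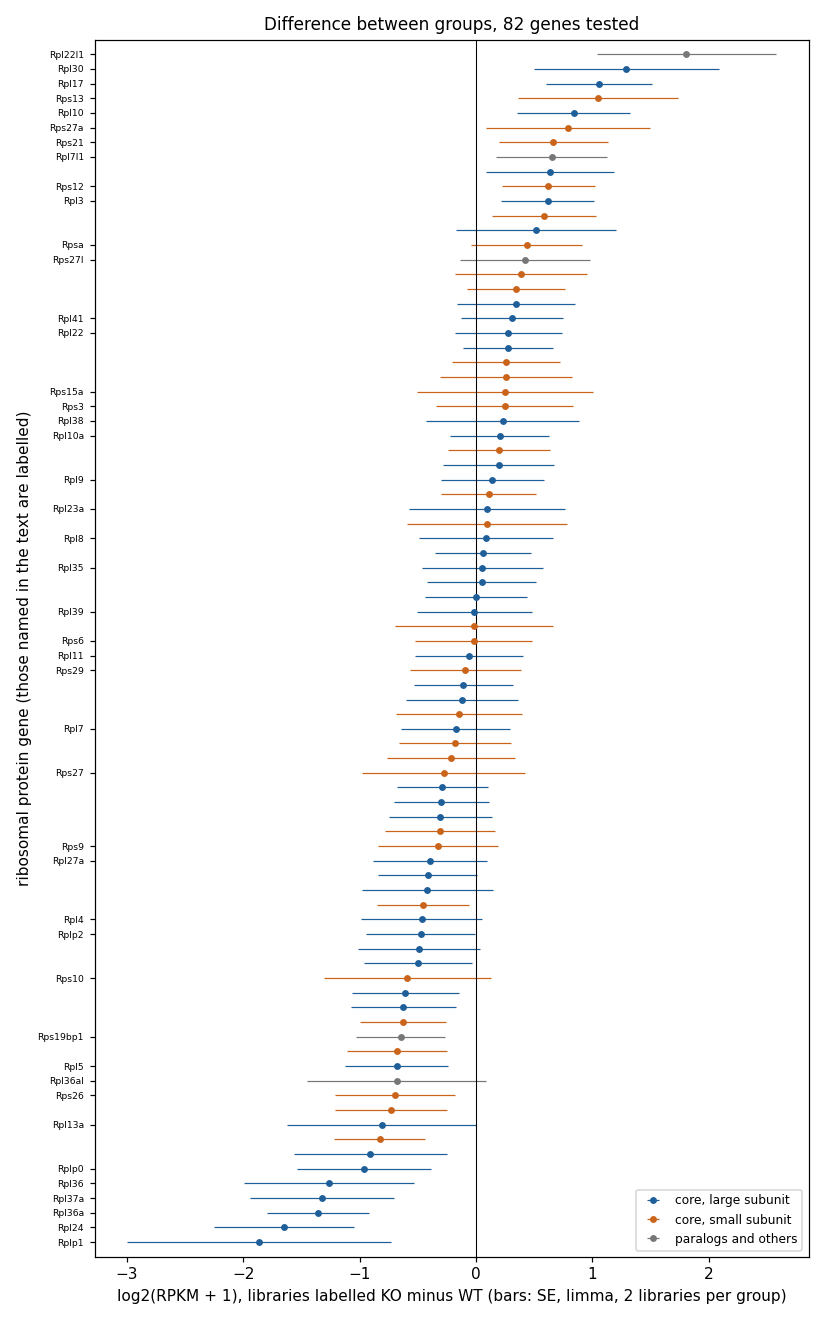
Log2 difference between the KO-labelled libraries and WT for each of the 82 ribosomal protein genes tested, ordered by size and labelled where the text names the gene, with the SE of the limma fit (2 libraries per group) as bars. Large subunit genes (blue) are found at both ends, from Rplp1 at -1.86 to Rpl30 at 1.29, and none of the 82 passed the adjusted threshold.

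Rpl36a and Rpl24, both large subunit genes, were the pair at an unadjusted p under 0.05. Rpl36a (ENSMUSG00000079435, chromosome X, 134585654 to 134588062, plus strand), whose product sits at the exit site of the transfer RNA, had 38.1 and 29.5 RPKM in WT and 16.0 and 9.73 RPKM in the KO-labelled libraries. The groups did not overlap, and the means were 33.8 ± 6.07 and 12.9 ± 4.43 RPKM (SD, n = 2). The log2 difference was -1.35, with 95% bounds of -2.43 and -0.28 (limma, adjusted p = 0.660). Its unadjusted p was 0.112 without WT replicate 1, 0.0662 without WT replicate 2, 0.0978 without KO-labelled replicate 2 and 0.0355 without KO-labelled replicate 1. With the trend on GC and coding length removed and a replicate block added it passed the adjusted threshold (adjusted p = 0.0410, limma). That setting called 55 of 9869 genes, against 12 of 11363 in the reported analysis. Rpl24 (ENSMUSG00000098274, chromosome 16, 55966275 to 55971435, plus strand) had a fitted log2 difference of -1.65, which rests on 4 reads in WT and 1 read in the KO-labelled libraries. Every library was under the floor of 3 reads, and the gene passed the filter only through its WT mean of 3.67 RPKM, against 0.601 RPKM in the KO-labelled libraries, so no direction was read from it and Rpl36a is left as the only gene above the floor at that threshold.

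The largest negative difference was that of Rplp1, at -1.86 with a 95% interval from -4.65 to 0.93. The groups overlapped, because WT replicate 1 at 455 RPKM lay below KO-labelled replicate 2 at 633 RPKM. Without WT replicate 2 the difference was -0.40, without KO-labelled replicate 1 it was -0.99, without KO-labelled replicate 2 it was -2.74 and without WT replicate 1 it was -3.33. Rplp1 and Rpl24 were the only members farther than 1.5 interquartile ranges below the quartiles, and Rpl22l1 was the only one above. Rpl37a, a zinc finger protein gene of the large subunit, had 146 and 48.2 RPKM in WT and 34.4 and 31.6 RPKM in the KO-labelled libraries, a difference of -1.32 that was -0.53 without WT replicate 1 and -2.11 without WT replicate 2. Rpl36 (difference -1.26) had 60.6 and 88.7 RPKM in WT and 14.4 and 61.4 RPKM in the KO-labelled libraries, groups that overlapped. The difference of Rpl36 was -0.25 without KO-labelled replicate 1 and -2.27 without KO-labelled replicate 2.

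At the other end, Rpl22l1, the paralog that can replace RPL22 in the ribosome, had 3 and 0 reads in WT against 17 and 5 in the KO-labelled libraries. The groups did not overlap, and its log2 difference of 1.81 had a 95% interval from -0.09 to 3.70. It was 0.90 without WT replicate 2, 1.14 without KO-labelled replicate 1 and 2.71 without WT replicate 1. The ratio of its scaled reads was 4.59, with an exact 95% counting interval from 1.38 to 24.0. That interval pools the libraries of a group and leaves out the spread between 17 and 5 reads. By the rule of 3 reads neither WT level is distinct from 0. Rpl22l1 passed the filter mainly through its KO-labelled mean of 6.27 RPKM, against 1.25 RPKM in WT. Neither a size nor a direction of change was therefore read from Rpl22l1. Rpl22, its core partner, had 22.8 and 11.7 RPKM in WT and 20.1 and 19.99 RPKM in the KO-labelled libraries, a difference of 0.28.

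Rpl30, which encodes a protein that also binds its own transcript in yeast, had the largest positive difference among core genes, at 1.29. Its values were 10.4 and 43.6 RPKM in WT and 34.0 and 86.1 RPKM in the KO-labelled libraries, and the groups overlapped. Rpl17, an exit tunnel protein gene, had 37.5 and 41.6 RPKM in WT and 66.5 and 104 RPKM in the KO-labelled libraries, groups that did not overlap (difference 1.06 ± 0.46 SE, adjusted p = 0.675, limma). Rps13 had 23.4 and 82.8 RPKM in WT and 75.8 and 113 RPKM in the KO-labelled libraries, with a difference of 1.05, and the groups overlapped. Rpl10, whose product completes the peptidyl transferase center late in assembly, had 17.0 and 33.1 RPKM in WT and 39.2 and 47.6 RPKM in the KO-labelled libraries, groups that did not overlap, with a difference of 0.84 that was 0.38 without WT replicate 1 and 1.30 without WT replicate 2. Rps27a, which encodes a ubiquitin fusion protein, had 10.1 and 44.1 RPKM in WT and 39.7 and 35.8 RPKM in the KO-labelled libraries. In Rpl30, Rps13 and Rps27a the lowest of the 4 values was that of WT replicate 1. Without that library the differences of the 3 genes were 0.31, 0.16 and -0.22, below the 0.99 of Rpl17, and without WT replicate 2 they were 2.27, 1.94 and 1.80.

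The members were then ordered by place on the ribosome. The P-stalk base protein RPLP0, its partners RPLP1 and RPLP2 and the adjoining RPL12 were encoded by genes with differences of -0.96, -1.86, -0.48 and -0.11. Rplp0 (ENSMUSG00000067274, chromosome 5, 115559467 to 115563727, plus strand) had 94.0 and 130 RPKM in WT and 36.6 and 86.6 RPKM in the KO-labelled libraries. Rplp2 had 93.7 and 104 RPKM in WT and 56.4 and 89.0 RPKM in the KO-labelled libraries. In these 2 stalk genes the groups did not overlap, as in 40.4% of all genes tested, and none of the 4 reached an unadjusted p under 0.05. Under other settings some did, at an unadjusted p of 0.00314 for Rplp1 and 0.0450 for Rplp0 in voom, 0.0306 for Rplp1 with a replicate block, 0.000947 and 0.0267 with the block and the GC and coding length trend removed, and 0.0471 for Rplp0 without KO-labelled replicate 2. The adjusted p of Rplp1 ran from 0.109 to 0.956 over the settings and that of Rplp0 from 0.432 to 0.944 (limma). Without KO-labelled replicate 1 the differences of Rplp0 and Rplp2 were -0.35 and -0.15, and without KO-labelled replicate 2 they were -1.57 and -0.80. Rplp2, whose product is the dimer partner of RPLP1, did not share the high level of Rplp1 in WT replicate 2.

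The proteins RPL5 and RPL11 join the ribosome with 5S rRNA and, when free, restrain MDM2. Rpl5 had 23.7 and 20.03 RPKM in WT and 17.7 and 9.79 RPKM in the KO-labelled libraries, groups that did not overlap (difference -0.68, which was -0.28 without KO-labelled replicate 2 and -1.08 without KO-labelled replicate 1). Rpl11 had 11.1 and 22.0 RPKM in WT and 16.4 and 13.8 RPKM in the KO-labelled libraries, and the groups overlapped (difference -0.06). Rpl10a, of the L1 stalk that guides the leaving transfer RNA, had 25.2 and 23.6 RPKM in WT and 22.7 and 35.1 RPKM in the KO-labelled libraries. The 8 exit tunnel genes had a median difference of 0.02, between -0.47 for Rpl4 and 1.06 for Rpl17. Rpl4, which reaches into the tunnel, had 373 and 236 RPKM in WT and 214 and 215 RPKM in the KO-labelled libraries, groups that did not overlap. Its difference was -0.14 without WT replicate 1 and -0.80 without WT replicate 2. Rpl39, of the tunnel wall, had the difference nearest 0 of the 8, at -0.01, with 33.5 and 66.6 RPKM in WT and 44.6 and 49.2 RPKM in the KO-labelled libraries.

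The 5 small subunit genes of the mRNA channel and decoding site had a median difference of -0.15, between -0.33 for Rps9 and 0.24 for Rps3, and in none of them did the groups separate, against 40.4% of all genes tested. Rps6, whose product is the classical substrate of the S6 kinases below mTORC1, had 94.1 and 161 RPKM in WT and 111 and 132 RPKM in the KO-labelled libraries, a difference of -0.02. Rpsa, which also encodes the laminin receptor, had 11.5 and 23.4 RPKM in WT and 24.7 and 20.7 RPKM in the KO-labelled libraries. The groups overlapped in both genes.

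Summed over the genes of a subunit, RPKM was higher for the large than for the small subunit in every library. The sums run over 46 and 31 genes, so equal levels per gene would also give the large subunit the higher sum. Median RPKM of the large and small subunit genes was 37.8 and 31.4 in WT replicate 1 and 39.1 and 41.8 in WT replicate 2. It was 34.0 and 38.5 in KO-labelled replicate 1 and 43.9 and 46.5 in KO-labelled replicate 2. The ratio of the sums was 2.06 and 2.88 in WT and 1.36 and 1.64 in the KO-labelled libraries, which did not overlap (log2 ratio 1.29 ± 0.34 and 0.58 ± 0.19, SD, n = 2). The exact permutation test of its log2 value gave p = 0.333, the smallest that 2 libraries against 2 can give. A single gene carried much of the contrast. Rplp1 made up 15.0% and 54.6% of the summed large subunit RPKM in WT and 8.24% and 18.3% in the KO-labelled libraries. Without Rplp1, a setting added once the data had been seen, the ratios were 1.75 and 1.31 in WT and 1.25 and 1.34 in the KO-labelled libraries, which overlapped (exact permutation p = 0.667). On coding length the ratios were 1.83 and 1.99 in WT and 1.41 and 1.52 in the KO-labelled libraries. Medians over genes differed little, since the median log2 difference was -0.12 for the 46 large and -0.02 for the 31 small subunit genes, and both KO-labelled libraries lay below both WT libraries in 13 large and 6 small subunit genes and above in 5 and 4, beside 20.3% and 20.1% of all genes tested.

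The share of protein-coding reads on the 92 genes was 1.65% (95% Wilson interval 1.61% to 1.70%) and 2.23% (2.16% to 2.29%) in WT and 1.29% (1.26% to 1.32%) and 1.87% (1.83% to 1.91%) in the KO-labelled libraries. The KO-labelled replicate 2 lay between the WT libraries, and the exact permutation test gave p = 0.667. The difference between the group means was -0.36 percentage points, and it was -0.07 without WT replicate 2 and also -0.07 without KO-labelled replicate 1. Of all gene-assigned reads the share ran the other way, at 0.687% and 0.754% in WT and 0.843% and 1.11% in the KO-labelled libraries (exact permutation p = 0.333). That denominator includes the noncoding reads, whose share was lower in the KO-labelled libraries.

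**Figure D3:**
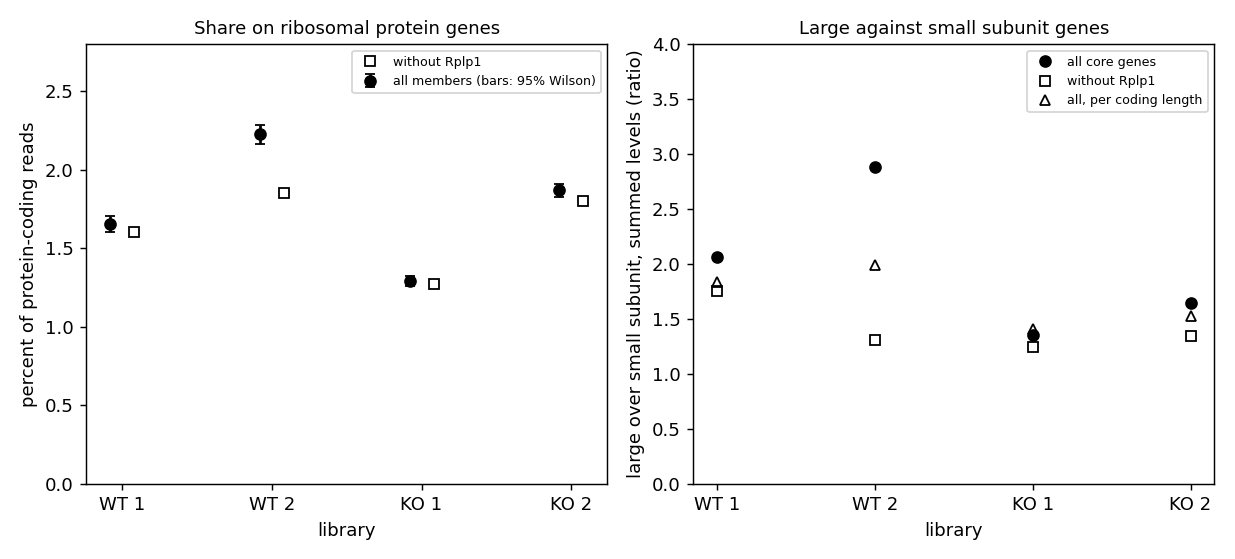
Left, percent of protein-coding reads on the 92 genes in each library (bars are 95% Wilson intervals for counting error) with and without Rplp1; right, summed level of the 46 large over the 31 small subunit genes, in RPKM with and without Rplp1 and per coding length. The ratio in WT 2 is 2.88 with Rplp1 and 1.31 without it.

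The spread within groups was as large as the difference between them in most core genes. In 58 of 77 core genes the range within at least 1 group was wider than the difference of the group means in RPKM. The median core gene differed by a factor of 2.08 between its highest and lowest library, 41 genes differed by more than 2 and 11 by more than 4. These counts were not set beside shares over all genes tested, so they describe the core genes and not a trait of the family. Replicate 2 was above replicate 1 in 43 of 77 core genes for WT and in 54 of 77 for the KO-labelled libraries. The median difference of replicate 2 from replicate 1 was 0.25 in WT and 0.39 in the KO-labelled libraries on the log2 scale, beside -0.01 and 0.03 for protein-coding genes. In 32 of 77 core genes, or 41.6%, replicate 2 was above replicate 1 in both groups, against 26.4% of the protein-coding genes tested.

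The genes at the far corner of that pattern were Rplp1, Rpl30 and Rps15a. Rps15a, chosen after its values were seen, had 2.91 and 14.6 RPKM in WT and 5.28 and 12.6 RPKM in the KO-labelled libraries. Outside the 92 genes, the ubiquitin-like fusion gene of RPS30, Fau, had 46.6 and 42.0 RPKM in WT and 18.4 and 43.8 RPKM in the KO-labelled libraries. Rack1, a scaffold protein of the small subunit head, had 96.9 and 192 RPKM in WT and 132 and 233 RPKM in the KO-labelled libraries. Neither Fau nor Rack1 separated the groups.

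**Figure D4:**
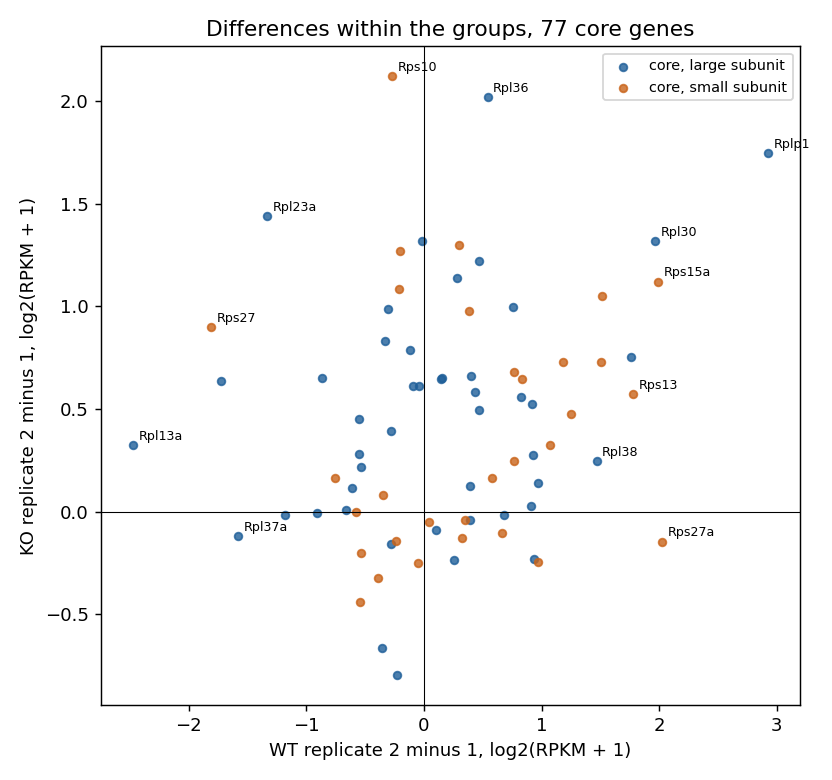
Difference of replicate 2 from replicate 1 in log2(RPKM + 1) in WT (horizontal) and in the KO-labelled libraries (vertical) for the 77 core genes, with genes named in the text labelled. Rplp1, Rpl30 and Rps15a lie high on both axes, and 32 of the 77 genes lie above 0 on both.

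The starts of the mRNAs were examined for the TOP tract. RefSeq starts on GRCm38.p6 matched 66 of the 92 genes, with 78 starts. The motif searched on the transcribed strand was a C followed by at least 4 bases that are each C or T, beginning within 5 bases of the annotated start. It was found at a start of 30 of 66 ribosomal protein genes (45.5%), against 21.8% of 16571 protein-coding genes. With a window of 20 bases on either side the shares were 80.3% and 54.1%. Windows of 30 bases, 10 before and 20 from the annotated start, are shown for genes described in the text and for Rpl27a, chosen for its run after its values were seen, to set long tracts beside genes with no run that begins within 5 bases of the start. Capitals mark the run from its first C within those 5 bases, so that the run of Rpl35 extends farther to the left than its capitals, and runs farther off, such as those in the windows of Rplp0 and Rpl36a, are left in lower case.
Rpl27a (chr7:109519185-109519214, plus strand): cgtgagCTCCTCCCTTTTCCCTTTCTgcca
Rpl13a (chr7:45128726-45128755, minus strand): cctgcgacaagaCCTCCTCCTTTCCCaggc
Rpl35 (chr2:39005112-39005141, minus strand): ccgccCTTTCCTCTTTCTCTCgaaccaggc
Rps6 (chr4:86857348-86857377, minus strand): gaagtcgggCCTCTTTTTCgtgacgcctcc
Rplp2 (chr7:141447641-141447670, plus strand): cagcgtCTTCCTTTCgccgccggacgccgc
Rpl38 (chr11:114668570-114668599, plus strand): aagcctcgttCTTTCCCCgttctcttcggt
Rplp0 (chr5:115559457-115559486, plus strand): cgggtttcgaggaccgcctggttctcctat
Rpl36a (chrX:134585644-134585673, plus strand): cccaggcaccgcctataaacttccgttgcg
Rpl10 (chrX:74270806-74270835, plus strand): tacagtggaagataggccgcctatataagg

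Rpl27a holds the longest run, of 20 bases, and had 37.1 and 29.8 RPKM in WT and 17.5 and 35.7 RPKM in the KO-labelled libraries. The 27 core genes with a run had a median log2 difference of -0.30, between -0.91 and 0.66, and both KO-labelled libraries lay below both WT libraries in 8 of them and above in 1. The 30 core genes with a start but no run had a median of 0.05, between -1.65 and 1.05, and 9 of them lay below and 3 above. Over all genes tested the shares were 20.3% below and 20.1% above. No test was made between these groups, and the absence of a run says only that none begins near the annotated start. Rplp1, Rpl30, Rpl17, Rps27a and 16 other core genes had no entry among the starts.

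Runs of prolines, the sites at which eIF5A is best known to act, were rare in this family. Of the 77 core genes 2 encode 3 prolines in a row, Rpl13a and Rps26, and none encodes 4, whereas 25.3% of 9869 protein-coding genes tested encode at least 3. The shares were not matched for length, and the median coding length was 459 bases in the core genes against 1359 bases in the protein-coding genes. Rps26, whose product lines the mRNA exit channel, had 55.9 and 48.1 RPKM in WT and 21.4 and 46.5 RPKM in the KO-labelled libraries, a difference of -0.70, and its groups did not overlap. Rps26 lies outside the rule for named genes and was chosen after its values were seen.

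Related genes were read from the same fit, from lists chosen with earlier results of these data known. Of 75 mitochondrial ribosomal protein genes tested, none passed the adjusted threshold, 8 were higher and 1 lower in the KO-labelled libraries at an unadjusted p under 0.05 (2.86% and 4.46% of all genes tested), and the median log2 difference was 0.24. Mrps18c, of the small mitochondrial subunit, lies outside the rule for named genes and had the smallest adjusted p of this list, 0.518 (limma). It had 1.54 and 3.95 RPKM in WT and 13.3 and 19.6 RPKM in the KO-labelled libraries. Its WT values rest on 1 and 2 reads, under the floor of 3. Of 49 ribosome biogenesis genes tested, 0 passed, 4 were higher and 0 lower at an unadjusted p under 0.05, and the median was 0.33. Ncl, which encodes the nucleolar protein nucleolin, had 19.2 and 29.8 RPKM in WT and 47.0 and 40.8 RPKM in the KO-labelled libraries. In 15 of the 49 both KO-labelled libraries lay above both WT libraries and in 0 below, whereas among the 77 core ribosomal protein genes the counts were 9 and 19, and over all genes tested the shares were 20.1% and 20.3%. The difference between the lists was not tested.

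The 20 other TOP mRNAs had a median of 0.25 and no gene at an unadjusted p under 0.05. Eef2, the elongation factor that moves the ribosome along, had 314 and 298 RPKM in WT and 278 and 291 RPKM in the KO-labelled libraries. Eef1a1, which delivers aminoacyl-tRNA, had 223 and 285 RPKM in WT and 196 and 253 RPKM in the KO-labelled libraries. The 15 genes tested of Pol I and 5S rRNA transcription had a median of 0.03, with 0 genes at an unadjusted p under 0.05 in either direction. The 6 genes tested among chaperones of ribosomal proteins had a median of 0.17, with 1 higher and 0 lower. The 13 genes tested of mTORC1 and the TOP regulators had a median of -0.28, with 1 higher and 2 lower. Over all genes tested 2.86% were higher and 4.46% lower at that threshold. Larp1 had 20.2 and 10.3 RPKM in WT and 10.0 and 9.97 RPKM in the KO-labelled libraries, so that WT replicate 1 alone stood apart.

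**Figure D5:**
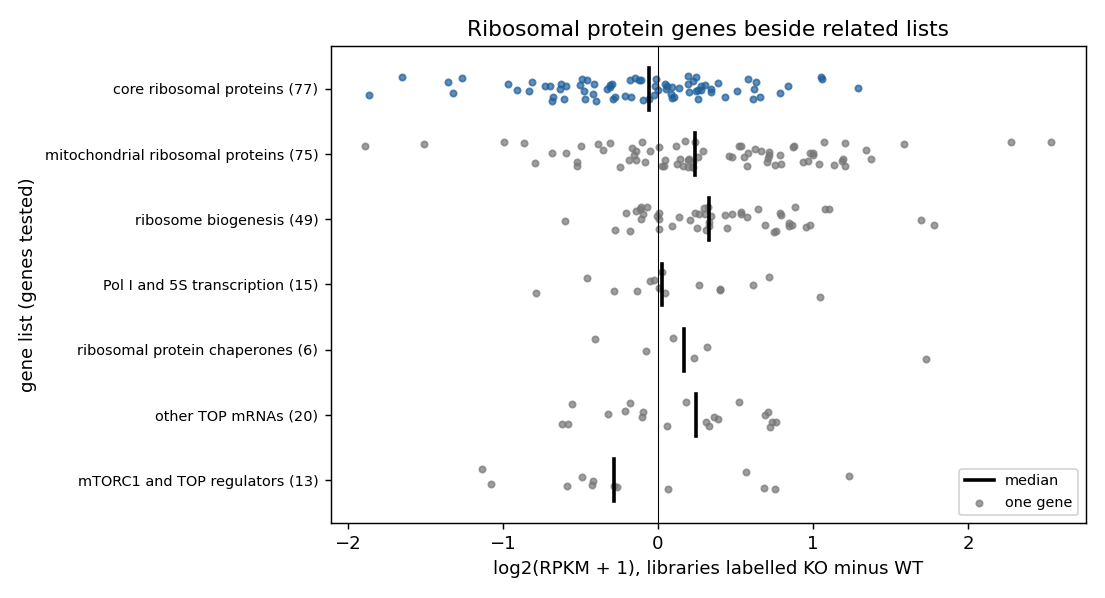
Log2 difference between the KO-labelled libraries and WT for every gene tested in 7 lists, one point per gene, with the list's median as a black line and the number of genes tested in parentheses. The median is -0.06 for the core ribosomal protein genes, 0.33 for ribosome biogenesis and 0.24 for mitochondrial ribosomal proteins.

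By Pearson correlation of log2 levels over the 4 libraries with the summed RPKM of the 92 genes, the most alike of 1095 other protein-coding genes with a mean of at least 20 RPKM were mt-Atp8, H3f3b, Gstm1, Yipf1 and Cavin3, with r from 0.991 to 1.000. The summed RPKM was 4568 and 8653 in WT and 4064 and 5656 in the KO-labelled libraries, and without Rplp1 it was 4112, 5187, 3876 and 5023. Rplp1 in WT replicate 2 thus carried much of the summed pattern, and the ranking was not repeated without that gene. mt-Atp8, a short subunit of the mitochondrial ATP synthase, had 32.5 and 260 RPKM in WT and 21.6 and 66.8 RPKM in the KO-labelled libraries, the order of Rplp1. With 4 libraries such correlations are descriptions of these libraries only.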

How the data were processed

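Ribo-seq was done on 2 WT libraries and 2 libraries with the eIF5A knockout label. The authors removed rRNA and tRNA reads, aligned reads with Tophat2 to mm10 and counted them with HTSeq on Ensembl gene models. The versions of both tools and the treatment of reads with several matches are not given in the sources used here. The duration of cycloheximide treatment differs between the sample labels and the study's methods. The values deposited by the authors are RPKM, per kilobase of gene length. RPKM times gene length gave whole reads for 100% of values (tolerance 0.01). The denominators so recovered, 471136 to 906990 reads, matched size-factor scaling (median of ratios times the geometric mean total), which hides any shift common to most genes.

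The test was limma 3.58.1 (R 4.3.3; lmFit, eBayes with trend) on log2(RPKM + 1), with group as the only term, over 11363 genes with a mean of at least 1 RPKM, adjusted by Benjamini-Hochberg with a threshold of 0.05. The scale understates changes of low genes. Single values per library were compared by exact two-sided permutation (smallest p 0.333). The scripts were tested on simulated data. Coding sequences came from GENCODE vM21, which held all 92 genes. Starts came from RefSeq (GRCm38.p6). The named genes were the 6 largest and 6 smallest differences, the 5 highest and 5 lowest levels, members beyond 1.5 interquartile ranges or at an unadjusted p under 0.05, paralogs with their partners, and members fixed by role; a few genes are not reported here. Members and lists were chosen with earlier results of these data known. Alternatives covered the pseudocount, filter, variance trend, genes tested, scaling, voom, GC and coding length, a replicate block, and each library left out.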

Additional observations from a re-analysis of the deposited data

How the results depend on the processing

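No setting but 1 called a ribosomal protein gene. At an unadjusted p under 0.05 the count of 2 became 1 with a mean of at least 5 RPKM, 5 with protein-coding genes only, 11 with scaling to all gene-assigned reads, 8 with voom, 7 with the GC and coding length trend removed, and 1 to 10 as each library was left out. These counts are out of 82 genes, or 77 at a mean of at least 5 RPKM. Among all genes tested the share was 7.32% in the reported analysis. It was 9.16% at a mean of at least 5 RPKM and 8.45% with protein-coding genes only. It was 16.3% with scaling to all gene-assigned reads, 11.1% with voom and 7.35% with the GC and coding length trend removed. The counts with a library left out were not set beside a share. The median log2 difference of -0.04 became 0.52 with scaling to all gene-assigned reads and ran from -0.26 to 0.17 as each library was left out. The groups did not overlap in 50 to 65 genes as each library was left out, by the smaller number of values alone, and in 30 to 45 under the other settings. The 45, with scaling to all gene-assigned reads, were 42 higher and 3 lower in the KO-labelled libraries, and the 11 at an unadjusted p under 0.05 were higher, against 11 higher and 20 lower and a pair of lower genes in the reported analysis. The difference in the share of protein-coding reads, -0.36 percentage points, became 0.25 with all gene-assigned reads as the denominator and ran from -0.65 to -0.07 as each library was left out. The change of the log2 ratio of large to small subunit sums, -0.71, was negative under all 8 alternatives (-0.95 to -0.22). Of the 35 named genes tested, 16 kept their sign under every setting in which they were tested and 19 did not; Rpl22l1 and Rpl24, among the 16, were not tested at a mean of at least 5 RPKM. The cause was not tested. With scaling to all gene-assigned reads the changed values were Rpl11 at 0.52, Rpl39 at 0.59, Rpl4 at 0.15, Rpl7 at 0.43, Rplp2 at 0.13, Rps27 at 0.29 and Rps6 at 0.59. With scaling to protein-coding reads they were Rpl35 at -0.017 and Rpl8 at -0.026, and with voom Rpl35 at -0.070. Under the GC and coding length correction, whether the replicate block was added or not, they were Rpl22 at -0.039, Rpl35 at -0.051, Rpl38 at -0.093, Rpl41 at -0.016 and Rpl9 at -0.15. As each library was left out the log2 differences ranged as follows: Rpl10a -0.10 to 0.51, Rpl11 -0.52 to 0.41, Rpl22 -0.18 to 0.73, Rpl35 -0.41 to 0.51, Rpl36al -1.57 to 0.21, Rpl38 -0.51 to 0.96, Rpl39 -0.50 to 0.47, Rpl7 -0.57 to 0.22, Rpl8 -0.33 to 0.50, Rpl9 -0.15 to 0.43, Rps10 -1.65 to 0.47, Rps27 -1.18 to 0.63, Rps27a -0.22 to 1.80, Rps27l -0.18 to 1.03, Rps6 -0.40 to 0.36, Rpsa -0.049 to 0.92.

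The labels give no shared source for equal replicate numbers. The differences of replicate 2 from replicate 1 in the 2 groups had a Pearson correlation of 0.06 over all genes tested and 0.20 over the core genes, and with 2 pairs the numbers were not taken as pairs. With the replicate block 5 of the 82 genes had an unadjusted p under 0.05, beside 7.28% of all genes tested, and 0 passed. With the replicate block and the GC and coding length trend removed together 13 of the 82 did, beside 9.33% of all 9869 genes tested. Rpl36a passed there, at a log2 difference of -1.68 and an adjusted p of 0.0410 (limma), in a setting that called 55 of the 9869 genes. Depth limits the low genes most, and 2 libraries per group limit all of them. A left-out library leaves a lone library in its group, which is assumed to vary like the other group.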

Other observations

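Introns of ribosomal protein genes host small nucleolar RNAs (snoRNAs), which guide the modification of rRNA and are not translated. The table held 58 snoRNA rows inside 30 of the 92 genes on the same strand, and 25 of them had reads. These reads summed to 2764 and 599 in WT and 477 and 663 in the KO-labelled libraries, while the 30 host genes had 1890 and 1808 reads in WT against 2619 and 3215 in the KO-labelled libraries. Of the 18 hosted snoRNAs with at least 20 reads, 11 had both KO-labelled libraries below both WT libraries and 0 had both above, and the median log2 difference was -1.38. That minimum was set on the reads of all libraries together, so a snoRNA could reach it through WT replicate 1 alone. Of 63 other snoRNAs with at least 20 reads, 38 lay below and 1 above, with a median of -1.10. Over all genes tested, which were chosen by mean RPKM instead, 20.3% lay below. Scaled to all gene-assigned reads, 5 of the 18 lay below and 1 above, and 18 of the 63 below and 3 above, beside 7.87% of all genes tested below and 41.4% above. The summed hosted snoRNAs were 0.426% and 0.0932% of gene-assigned reads in WT and 0.0678% and 0.102% in the KO-labelled libraries, so that the groups overlapped and WT replicate 1 stood apart. In limma 0 of the 18 passed an adjusted p of 0.05, while voom called 4 of the 18 and 6 of the 63 others, beside 0.695% of all genes tested. Snord34, in Rpl13a, was chosen after its values were seen and had 71 and 16 reads in WT against 5 and 14 in the KO-labelled libraries.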
